A study of Ovis aries with 18 samples.

Results

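The miR-200 family and its epithelial target axis were followed through 8 features: 3 miRNAs (oar-miR-200a, oar-miR-200b, oar-miR-200c) and the mRNAs ZEB1, ZEB2, CDH1, ESRP1 and EPCAM. They are 8 of 26379 rows, of which 7146 are miRNAs and 19233 are of gene type mRNA. The members were listed by name and selected on their CPM levels in the rams of these libraries, so their levels and age differences are given as a description, without a test. All 8 passed the filter on low counts, as did 969 miRNAs and 14921 mRNAs in all.

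The tissue was left testis of Small Tail Han sheep, from 9 rams in all, with 3 at each age of 2, 6 and 12 months. Every ram gave 1 small RNA library and 1 poly(A) mRNA library, so the 18 libraries form 9 pairs. Age is the only difference the labels give between the groups, and each replicate was a different animal. Levels are counts scaled for library size (CPM), and library totals were 295282 to 5710499 counts for miRNAs and 8657609 to 10937143 for mRNAs.

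The miR-200 family consists of small RNAs that epithelial cells make in large amounts. They bind the 3′ untranslated regions of ZEB1 and ZEB2, transcriptional repressors that switch off epithelial genes such as CDH1 and also the miR-200 genes themselves, so that the miRNAs and the repressors hold each other in check. In a testis, epithelial cells of this kind line the ducts that carry sperm out of the seminiferous tubules and the epididymis.

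The mature sequences show that the family falls into groups by the seed, bases 2 to 8, which pairs with target mRNAs. They are shown as deposited, with the seed in capitals, for the 3 members and the 3 other family rows that passed the filter.
oar-miR-200b: tAATACTGcctggtaatgatg
oar-miR-200c: tAATACTGccgggtaatgatgg
miR-429 row of chromosome 12: tAATACTGtctggtaatgccg
rno-miR-200b-3p: tAATACTGcctggtaatgatgac
oar-miR-200a: aACACTGTctggtaacgat
miR-141-3p row of chromosome 3: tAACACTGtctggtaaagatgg

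The oar-miR-200b, oar-miR-200c, miR-429 and rno-miR-200b-3p rows share the seed AATACTG. The miR-141-3p row has AACACTG, which in oar-miR-200a stands at bases 1 to 7, as the deposited oar-miR-200a begins at the a after the leading t of the other rows. The rno-miR-200b-3p row extends oar-miR-200b at its 3′ end, so reads of miR-200b could be split between them. In all, 13 rows of the miRNA table carried a member's seed at bases 2 to 8, of which 5 passed the filter and 6 held at most 10 counts over all libraries. With AACACTG or AATACTG anywhere in the first 8 bases there were 19 rows, of which 6 passed. In the RefSeq annotation of another sheep assembly (ARS-UI_Ramb_v3.0), MIR200A and MIR200B are adjacent on chromosome 12, between TTLL10 and C12H1orf159, and MIR200C lies on chromosome 3 before PTPN6.

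Libraries that stood apart are described here because the results rest on them. In the mRNA libraries, the spermatid gene TNP1, which packs sperm DNA, had 774, 2.07 and 26.1 CPM at 2 months, 748, 1479 and 838 CPM at 6 months and 952, 733 and 2.06 CPM at 12 months. Spermatid transcripts were thus high in 2-month replicate 1 and low in 12-month replicate 3, the reverse of the other rams of those ages. Whether the age labels of these 2 rams hold was not tested, and every age comparison that includes them depends on it. Only 1 of 9 mRNA libraries was most similar to a ram of its own age. Apart from this, 12-month replicate 1 held transcripts of the epididymis, the duct outside the testis in which sperm mature. Of 15 epididymis genes with a row, 7 exceeded 100 counts in that ram, 6 of them with at most 20 counts in any other library, and the summed level of the list was 1920 CPM against 1.37 to 44.6 CPM in the other 8 rams (2.02 to 38.7 CPM at 2 months and 29.7 to 34.1 CPM at 6 months). ADAM7, AQP9 and CRISP1, chosen after their values were seen, had 6367, 5347 and 1270 counts there and at most 5, 1 and 0 counts in any other ram, while CST11 was at 0 in every library. Of the 5 epididymis genes with at least 10 counts in another library, 0 were highest in 12-month replicate 1. The 7 that were highest there reached 10 counts in that ram alone, so their top ram was fixed by that minimum. The study states that intratesticular tissue was used, and in bulk tissue fewer cells of a type cannot be told apart from less RNA per cell.

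All 3 miRNAs were highest by far in 12-month replicate 1. The level of oar-miR-200a was 66.8, 300.1 and 50.6 CPM in 2-month replicates 1 to 3, 52.2, 789 and 1765 CPM at 6 months and 34280, 83.7 and 57.1 CPM at 12 months. For oar-miR-200b the levels were 12.0, 58.3 and 18.2 CPM at 2 months, 21.2, 81.9 and 359 CPM at 6 months and 10218, 48.5 and 17.5 CPM at 12 months. For oar-miR-200c they were 25.4, 57.1 and 4.98 CPM at 2 months, 4.89, 343 and 541 CPM at 6 months and 7006, 22.0 and 4.36 CPM at 12 months. In each case 12-month replicate 1 was followed by 6-month replicates 3 and 2 and then by 2-month replicate 2, while the other 5 rams were low at every age.

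12-month replicate 1 exceeded the ram with the next level 19.4-fold for oar-miR-200a, 28.4-fold for oar-miR-200b and 13.0-fold for oar-miR-200c. Against the median of the other 8 rams the ratios were 455, 293 and 295. Of the 969 tested miRNAs 178 (18.4%) had their highest level in this ram, and 35 (3.61%) exceeded that median more than 5-fold there. The 3 members are among both by the way they were selected. The 12-month mean was therefore less than its own spread, at 11474 ± 19751 CPM (SD, n = 3) for oar-miR-200a and 2344 ± 4037 CPM for oar-miR-200c. At 2 months the means were 139 ± 139.6 CPM for oar-miR-200a and 29.1 ± 26.2 CPM for oar-miR-200c, and at 6 months they were 869 ± 859 CPM and 296 ± 271 CPM. The order 12, 6, 2 months held for the means of each miRNA, but the rams of any pair of ages overlapped.

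**Figure D1:**
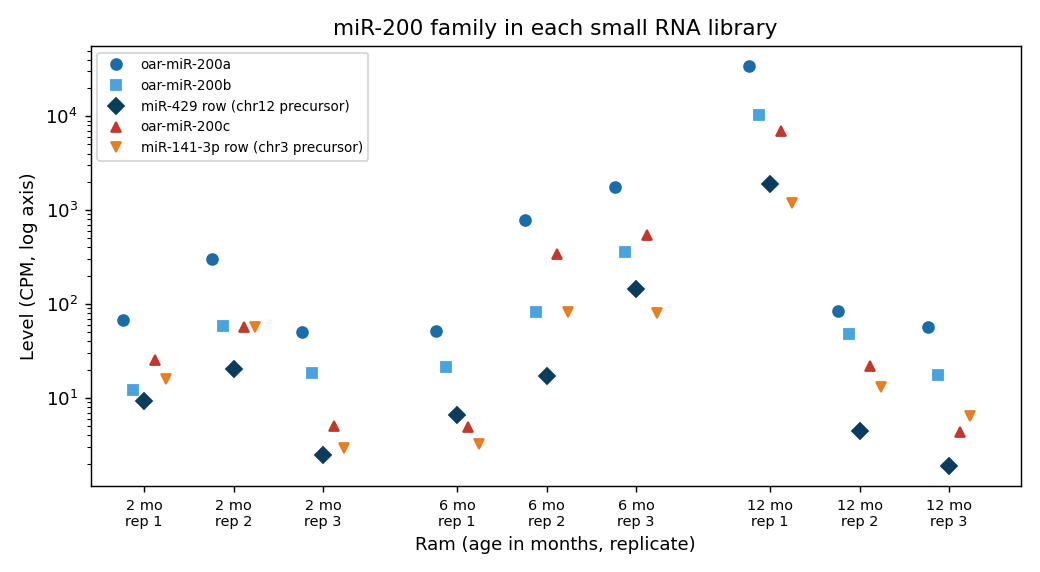
Levels of 5 family rows in each small RNA library (CPM, log axis) by ram, with the age in months and the replicate number on the horizontal axis. Every row peaks in 12-month replicate 1, where oar-miR-200a reaches 34280 CPM, and the next level is that of 6-month replicate 2 or 3.

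The other family rows also peaked in that ram. The miR-429 row had 9.35, 20.1 and 2.49 CPM at 2 months, 6.53, 16.9 and 143 CPM at 6 months and 1889, 4.41 and 1.87 CPM at 12 months. The miR-141-3p row had 16.0, 57.5 and 2.90 CPM at 2 months, 3.26, 83.3 and 79.5 CPM at 6 months and 1181, 13.2 and 6.44 CPM at 12 months. The rno-miR-200b-3p row lay between 6.63 and 108 CPM in 8 rams and reached 3622 CPM in 12-month replicate 1. Together the 6 rows made up 3.61% (95% Wilson interval 3.57 to 3.64) of that library, 0.131% and 0.319% of the libraries of 6-month replicates 2 and 3, and 0.00809% to 0.0527% of the other 6. The opposite arms of the precursors (-5p) were scarce, with 61 counts in 10 rows over all libraries, 26 of them in 12-month replicate 1.

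Depth limits the lowest of these values. A level of 3 counts corresponds to 0.623 CPM in the deepest small RNA library (12-month replicate 3) and to 9.54 CPM in the shallowest (6-month replicate 3). The level of oar-miR-200c in 6-month replicate 1 rested on 3 counts (95% Poisson interval 0.619 to 8.77), and that of the miR-429 row in 12-month replicate 2 on 2 counts. The 29744, 8866 and 6079 counts of the members in 12-month replicate 1 had intervals of 29407 to 30084, 8682 to 9053 and 5927 to 6234. No molecular identifiers are described for these libraries, so the intervals cover counting error only.

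The balance between the loci differed between rams. The rno-miR-200b-3p row, which may hold part of the miR-200b reads, is left out of all shares given here. It had 3143, 13 and 34 counts in 12-month replicate 1 and 6-month replicates 2 and 3, and adding it to chromosome 12 would raise the shares. Of the counts of the chromosome 12 pair (oar-miR-200b and the miR-429 row) and the chromosome 3 pair (oar-miR-200c and the miR-141-3p row), oar-miR-200a left aside, the chromosome 12 pair made up 59.7% (58.9 to 60.4) in 12-month replicate 1, 18.8% (15.2 to 23.1) in 6-month replicate 2 and 44.8% (39.7 to 50.0) in 6-month replicate 3. The 3 rams with the highest family levels thus had intervals that did not overlap, and the share was highest in 6-month replicate 1, at 77.3% (56.6 to 89.9) of 22 counts. In the 2-month-old rams it was 34.04%, 40.6% and 72.5%, and in the other 12-month-old rams 60.0% and 64.1%, so the ages overlapped here too. With oar-miR-200a, the most abundant chromosome 12 row, counted as well, the chromosome 12 share was 85.0% (84.7 to 85.3) in 12-month replicate 1, 67.6% (64.5 to 70.5) in 6-month replicate 2 and 78.5% (75.7 to 81.1) in 6-month replicate 3.

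**Figure D2:**
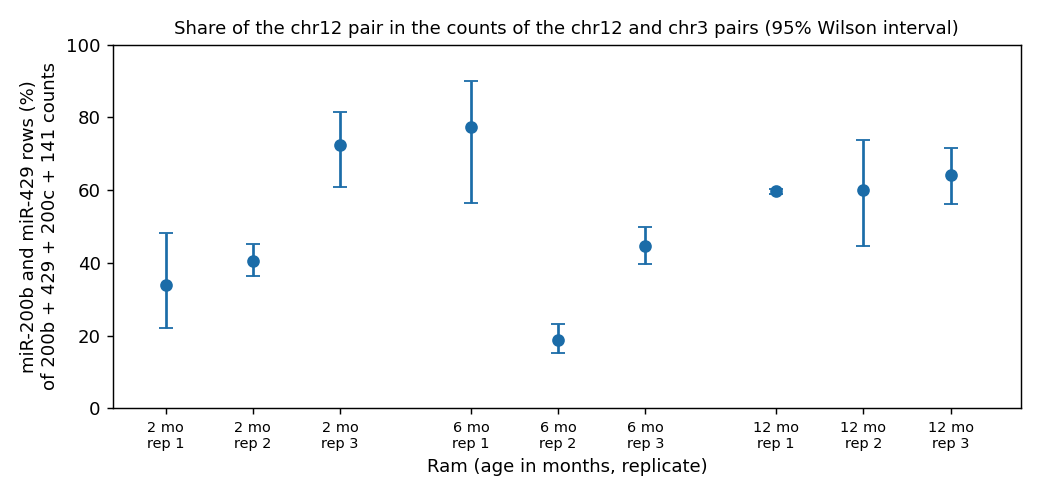
Share of the chromosome 12 pair, without oar-miR-200a and the rno-miR-200b-3p row, (%) in the counts of the chromosome 12 and chromosome 3 pairs for each ram, with 95% Wilson intervals that cover counting error only. The lowest share, 18.8%, is in 6-month replicate 2, and 12-month replicate 1 lies at 59.7%.

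ZEB1 and ZEB2, the repressors that the miR-200 family targets, did not mirror the miRNAs from ram to ram. ZEB1 had 31.4, 45.1 and 25.8 CPM at 2 months, 20.1, 24.1 and 23.9 CPM at 6 months and 30.1, 27.2 and 33.5 CPM at 12 months. In 12-month replicate 1, where the miRNAs were highest, it lay between the other 12-month-old rams. The means were 34.1 ± 9.95 (SD, n = 3), 22.7 ± 2.26 and 30.2 ± 3.13 CPM, and every 6-month-old ram was below every ram of the other ages.

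ZEB2 had 15.6, 48.1 and 21.5 CPM at 2 months, 20.2, 13.6 and 16.2 CPM at 6 months and 20.4, 12.8 and 33.5 CPM at 12 months. The rams of all ages overlapped, and the level in 12-month replicate 1 was 1.12 times the median of the other 8. The highest levels of either repressor were in 2-month replicate 2 and 12-month replicate 3, the rams with the fewest spermatid transcripts. In these rams the Sertoli cell markers, genes of the somatic cells inside the tubules, had their highest summed levels, 14254 and 11206 CPM against 2775 to 8473 CPM elsewhere. The sum rests mostly on CLU, with up to 164833 counts in a library against at most 5697 for any other marker. By gene, 9 of 11 markers were highest in 2-month replicate 2 and 1 in 12-month replicate 3. The part of these markers in the ZEB values was not tested.

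CDH1, which encodes the adhesion protein E-cadherin, had 2.22, 0.478 and 0.789 CPM at 2 months, 6.52, 7.46 and 4.16 CPM at 6 months and 66.6, 9.78 and 0.611 CPM at 12 months. The 531 counts in 12-month replicate 1 compared with 6 to 91 counts in the other rams. The level there was 6.81 times that of 12-month replicate 2, which followed it, and 20.9 times the median of the other 8. Below that ram, CDH1 was above 2 CPM in all 5 rams with high spermatid transcripts and under 1 CPM in the 3 rams low in them (2-month replicates 2 and 3 and 12-month replicate 3).

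ESRP1, an RNA-binding protein that sets the epithelial splicing pattern, had 8.98, 23.0 and 8.59 CPM at 2 months, 6.83, 5.77 and 7.51 CPM at 6 months and 63.8, 10.5 and 20.2 CPM at 12 months. Its peak was again in 12-month replicate 1, at 7.26 times the median of the other 8, followed by 2-month replicate 2 and 12-month replicate 3. EPCAM, an adhesion protein of epithelial cell surfaces, differed less between rams, with 147, 75.1 and 130.2 CPM at 2 months, 103, 145 and 134 CPM at 6 months and 195, 143 and 116 CPM at 12 months. It was highest in 12-month replicate 1 as well, but only 1.48 times the median of the others. The 3 epithelial members therefore had the same top ram as the miRNAs, with excesses that ranged from 1.48 to 20.9 times.

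**Figure D3:**
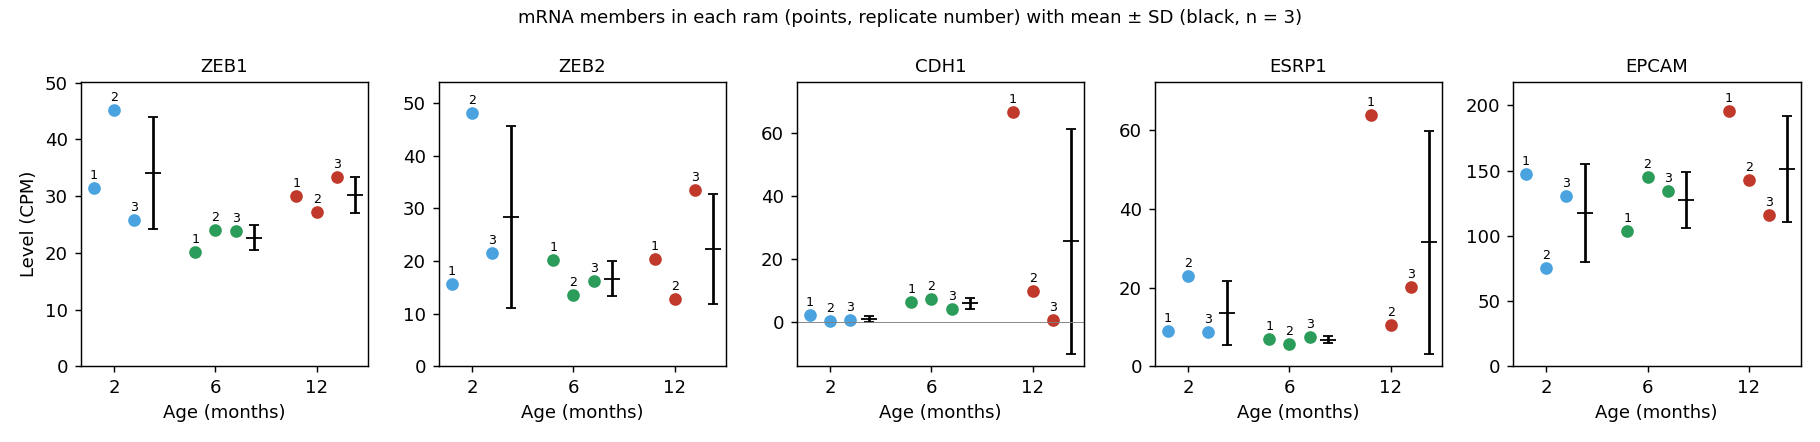
Levels of the 5 mRNA members (CPM, linear axes) in each ram by age in months, with points numbered by replicate and the mean ± SD of 3 rams in black. CDH1 and ESRP1 stand out in 12-month replicate 1 at 66.6 and 63.8 CPM, while ZEB1 and ZEB2 do not.

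Set side by side by ram, the miRNAs and the epithelial mRNAs parted below the top ram. In 6-month replicate 3, with the family at 2996 CPM in sum, CDH1 was at 4.16 CPM and ESRP1 at 7.51 CPM. In 6-month replicate 2, with 1332 CPM, they were at 7.46 and 5.77 CPM. In 12-month replicate 2, with 185 CPM, they were at 9.78 and 10.5 CPM, above both. No test of a correlation between the miRNAs and the mRNA members over rams is given, since 12-month replicate 1 lies far from the rest for the miRNAs and the mRNA libraries fall into groups by spermatid transcripts.

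The age comparisons asked which features changed as the testes matured. By edgeR's quasi-likelihood test, with an adjusted p under 0.05 and a fold change over 1.5, 0 of 969 miRNAs and 0 of 14921 mRNAs were called in any pair of ages (0%), the 8 members included. Calls of members are given beside these shares and nothing is read from them, since the members were selected on the same levels. Listing the youngest against the middle age first, then the middle against the oldest and last the youngest against the oldest, at an unadjusted p under 0.05 there were 63, 97 and 47 miRNAs and 608, 1025 and 399 mRNAs (4.07%, 6.87% and 2.67%). DESeq2 called 0, 8 and 3 miRNAs and 9, 3 and 1 mRNAs, none of them a member.

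The fitted differences of the miRNAs were large, and each rested on few rams. Between 2 and 6 months the difference was 2.63 on the log2 scale (standard error 2.04) for oar-miR-200a, 2.34 (1.92) for oar-miR-200b and 3.33 (2.26) for oar-miR-200c. Without 6-month replicate 3 these were 1.64, 0.81 and 2.64, and without 2-month replicate 2 they were 3.89, 3.29 and 4.36. Between 6 and 12 months it was 3.73 (2.14), 4.49 (2.09) and 2.99 (2.21), and without 12-month replicate 1 it was -3.66, -2.30 and -4.80. Between 2 and 12 months the values were 6.36 (2.42), 6.83 (2.33) and 6.32 (2.58), and without that ram -1.001, 0.030 and -1.44. When the filter on low counts was dropped, all 3 members were among the 41 of 7131 miRNAs (0.575%) called between 6 and 12 months and the 41 called between 2 and 12 months, and oar-miR-200c was among the 6 (0.0841%) called between 2 and 6 months. Whether a member was called thus depended on the filter, and the mRNA members were not called without it, as were 0 of 17810 mRNAs (0%).

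For the mRNA members, CDH1 had a log2 fold change of 2.39 (standard error 1.32) between 2 and 6 months and 2.08 (1.25) between 6 and 12 months, the latter -0.22 without 12-month replicate 1. Between 2 and 12 months it was 4.47 (1.41), and 2.15 without that ram. For ESRP1 the values in the same order were -1.01 (0.668), 2.23 (0.688) and 1.22 (0.664), the last pair 1.21 and 0.19 without that ram, and the first -0.39 without 2-month replicate 2. ZEB1 had -0.59 (0.257) and 0.41 (0.257), ZEB2 -0.77 (0.491) and 0.42 (0.490), and EPCAM 0.12 (0.335) and 0.25 (0.335), its 2- vs. 6-month value turning to -0.20 with library totals alone and -0.09 with upper-quartile scaling. Library totals alone moved the median of all mRNAs by -0.36 between 2 and 6 months and by 0.27 between 6 and 12 months, and upper-quartile scaling by -0.25 and 0.17. ZEB1 and ZEB2 kept their direction between 2 and 6 months, at -0.85 and -1.08 with upper-quartile scaling and -0.98 and -1.20 with library totals, but without 2-month replicate 2 they were -0.33 and -0.16.

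The rams of 2 and 6 months did not overlap for 3 of the 5 mRNA members, beside 18.7% of all 14921 mRNAs. CDH1 was higher at 6 months, as were 9.72% of all mRNAs, and ZEB1 and ESRP1 were lower, as were 8.98%. Between 6 and 12 months ZEB1 and ESRP1 did not overlap and were higher at 12 months, beside 13.0% of all mRNAs in either direction and 7.35% that were higher. With library totals EPCAM joined them, beside 12.4%. Between 2 and 12 months 0 of 5 were separate, beside 3.97%. For the miRNA members the count was 0 of 3 in each comparison, beside 13.8%, 14.2% and 7.33% of all miRNAs. With 2-month replicate 1 and 12-month replicate 3 left out, the rams whose spermatid transcripts go against their ages, a choice made after seeing the data, CDH1 was called between 2 and 6 months (log2 fold change 3.24) and between 2 and 12 months (5.90), as were 15.3% and 12.0% of all mRNAs. The other 4 mRNA members were not called in that fit, nor was any of 1015 miRNAs (0%), and the age groups there differ in spermatid transcripts by the choice of rams.

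The other epithelial genes were taken from lists of adhesion and polarity genes, splicing and transcription factors, and keratins and surface proteins. Of the 32 genes other than members with at least 10 counts in a library other than 12-month replicate 1, a rule added after seeing the data, 25 (78.1%) had their highest level in 12-month replicate 1, beside 19.0% of 15567 mRNAs. By list, members included, the counts were 11 of 12 adhesion and polarity genes, 6 of 9 splicing and transcription factors and 11 of 14 keratins and surface proteins. The median of the other 8 rams was exceeded there more than 5-fold by 15 of 32 genes (46.9%), beside 3.97% of all mRNAs. When that ram's own counts could also bring a gene past the minimum, 32 of 39 genes (82.1%) were highest in it, beside 20.3% of 15829 mRNAs, or 31 (79.5%) beside 14.2% with library totals, and 20 of 37 (54.1%) exceeded the median 5-fold, beside 4.94%. The 7 genes that this adds passed only through that ram, so their top ram was fixed by the rule.

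**Figure D4:**
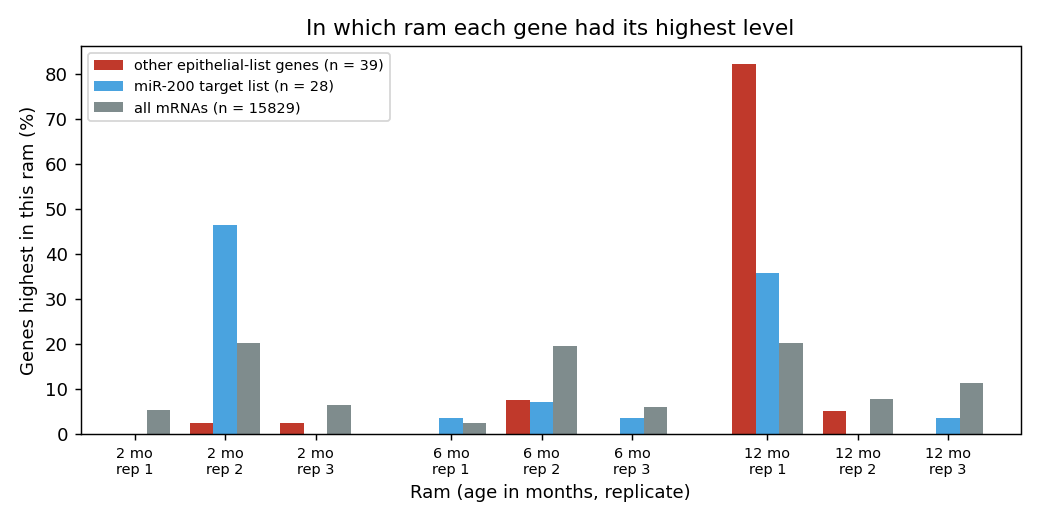
Share of genes (%) with their highest level in each ram, among those with at least 10 counts in any library, for the 39 other epithelial-list genes, the 28 listed miR-200 targets (ZEB1 and ZEB2 included) and 15829 mRNAs. The epithelial bar is at 82.1% in 12-month replicate 1, where 7 of the 39 genes passed only through that ram, while the target list peaks in 2-month replicate 2.

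Among the keratins and surface proteins, KRT7, a keratin of simple and ductal epithelia, had 230.2 CPM in 12-month replicate 1 and 0.311 to 2.55 CPM in the other 8 rams. KRT8, the partner of KRT18 in simple epithelia, had 221 CPM there and 0.789 to 3.59 CPM elsewhere, and KRT18 had 54.3 CPM there and at most 2.28 CPM elsewhere, though related copies in the genome make the counts of these keratins uncertain. The serine protease ST14 had 126 CPM against 0.518 to 3.27 CPM, and the desmosome protein DSP of the adhesion list 310.4 CPM against 18.9 to 100.3 CPM. In 6-month replicates 2 and 3, which had the next highest miR-200 levels, KRT8 was at 0.791 and 1.27 CPM and KRT7 at 0.565 and 0.346 CPM.

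Other list genes followed the spermatid transcripts instead. EHF, an ETS transcription factor of epithelia, had 301 to 491 CPM in 2-month replicate 1, the 6-month-old rams and 12-month replicate 2, 287 CPM in 12-month replicate 1 and 0.877 to 11.7 CPM in the 3 rams low in spermatid transcripts. RBM47, an RNA-binding protein, ranged from 67.7 to 99.7 CPM in the former 6 rams and from 7.87 to 21.2 CPM in the latter 3. MUC1 and MYO5B, a mucin and a vesicle motor, split the same rams in the same way, at 61.2 to 119 and 247 to 349 CPM against 4.46 to 28.8 and 35.3 to 48.4 CPM. SPINT2, a protease inhibitor, differed less, from 292 to 644 CPM. CGN, a tight junction protein, was at 47.6 CPM in 12-month replicate 1, near the bottom of its range of 46.8 to 126 CPM, and PARD6B, a polarity protein, was highest there at 40.2 CPM against 11.2 to 35.7 CPM. For CDH1 both patterns are visible, with the split by spermatid transcripts below the peak in 12-month replicate 1.

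Of the 43 epithelial rows 11 did not pass the filter by age, which takes out genes with counts in 1 ram alone. The counts of top rams above did not use this filter. They include the 10 of these rows with at least 10 counts in a library, all 10 highest in 12-month replicate 1. Of these, CLDN7, GRHL2 and PROM2 also reached 10 counts in another ram and are among the 32 genes. Chosen after their values were seen, the claudin CLDN7 had 1157 counts there and 0 to 16 elsewhere, PROM2 3922 and 2 to 17, and GRHL2, a transcription factor that sustains CDH1 in epithelia, 237 and 0 to 11. RAB25, a vesicle transport protein chosen likewise, had 262 counts against at most 3.

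With no ram left out, no epithelial list gene was called in any comparison by edgeR's quasi-likelihood test. Without 2-month replicate 1 and 12-month replicate 3, 1 of 12 adhesion and polarity genes, 2 of 8 splicing and transcription factors and 1 of 13 keratins and surface proteins were called between 2 and 6 months (beside 15.3% of all mRNAs), and 1, 2 and 2 between 2 and 12 months (beside 12.0%). The adhesion and polarity gene called in both comparisons was CDH1, a member selected on these levels. At an unadjusted p under 0.05 and with no ram left out, keratins and surface proteins included 5 of 13 tested genes higher between 6 and 12 months (beside 6.16% of all mRNAs) and 7 of 13 between 2 and 12 months (beside 2.01%), and without 12-month replicate 1 these fell to 1 and 0. The counts were 0 and 1 of 11 for adhesion and polarity genes and 1 and 0 of 8 for splicing and transcription factors. These were the members CDH1 and ESRP1, so they give no result about the other genes of these 2 lists. KRT8 had an adjusted p of 0.710 in edgeR's quasi-likelihood test for 6- vs. 12-month-old testes with a log2 fold change of 6.28. The median log2 fold change of the keratin list in that comparison was 2.06, and -0.32 without that ram, while that of all mRNAs was 0.05 and 0.04. For adhesion and polarity genes the medians were 0.94 and 0.03, and for splicing and transcription factors 0.07 and -0.29, members included.

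The same ram was also highest for genes of the efferent ducts and of smooth muscle. Of 11 genes of rete testis and efferent ductules, 7 peaked there, beside 20.3% of all mRNAs. The others peaked in 2-month replicate 2 (2 genes), 6-month replicate 2 (1) and 12-month replicate 2 (1), beside 20.3%, 19.6% and 7.76% of all mRNAs. KRT8, KRT18 and KRT19 stand both in this list and in the keratin list, so its count and sum repeat part of the keratin result. PAX8, a transcription factor of duct epithelium, peaked there at 289 CPM against 2.06 to 46.5 CPM, and LRP2, an endocytic receptor, at 304 CPM against 12.1 to 59.5 CPM. The summed level of the 11 genes was 1139 CPM against 65.8 to 225 CPM. All 5 smooth muscle genes peaked there too, with a summed level of 5646 CPM against 316 to 1385 CPM, and ACTA2 at 2562 CPM. Germ cell and Sertoli cell lists each had 1 gene highest in that ram, of 17 and of 11 (0 and 0 with library totals), and Leydig cell genes 0 of 7. The share of all mRNAs beside each of these counts of genes highest in that ram is the same 20.3%, or 14.2% with library totals. Among genes with at least 10 counts in another library, 6 of 17 germ cell, 4 of 11 Sertoli cell and 5 of 7 Leydig cell genes were lowest in that ram, beside 11.1% of all mRNAs. With library totals the counts were 6, 3 and 4, beside 12.8%. The part of these markers, and of the epididymis genes above, in the miR-200, CDH1 and ESRP1 levels was not tested. Without that ram, the highest levels were 1765 CPM for oar-miR-200a, 9.78 CPM for CDH1 and 23.0 CPM for ESRP1.

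**Figure D5:**
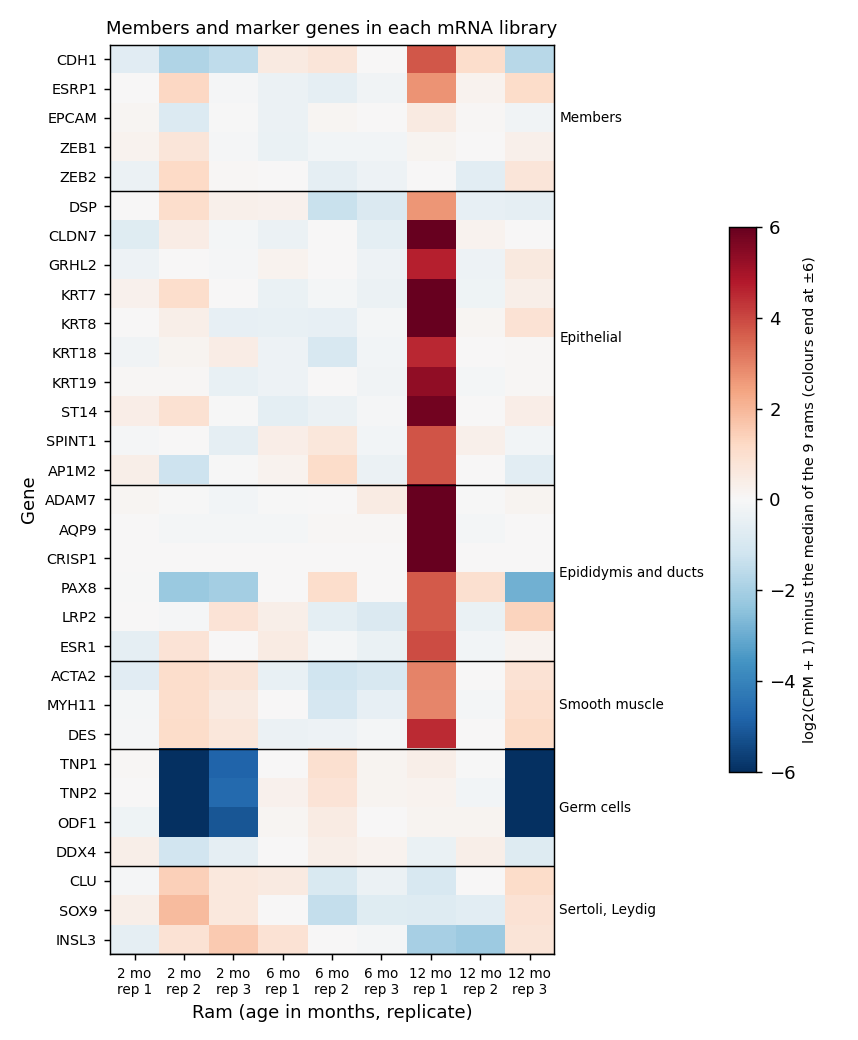
Log2(CPM + 1) of members and marker genes in each ram minus the median of the 9 rams, with red above and blue below and colours ending at 6. CDH1, ESRP1 and the keratin, epididymis, duct and smooth muscle genes drawn are red in 12-month replicate 1, and the spermatid genes TNP1, TNP2 and ODF1 are blue in 2-month replicates 2 and 3 and 12-month replicate 3. The genes drawn are a picked part of the lists. List genes with other patterns, such as EHF and CGN or the epididymis genes CST8, ELSPBP1 and TEDDM1, are not drawn.

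Of the mRNAs described as miR-200 targets in human and mouse cells, 27 had 10 counts in a library other than 12-month replicate 1, and 0 of these had their lowest level in that ram, beside 11.1% of all mRNAs, or 3 beside 12.8% with library totals. Of all 28 such genes, 10 had their highest level in 12-month replicate 1 and 13 in 2-month replicate 2, beside 20.3% of all mRNAs in each of these rams. Of the 27, 9 were highest in 12-month replicate 1, beside 19.0%. With library totals 5 of the 28 (17.9%) were highest in 12-month replicate 1, beside 14.2% of all mRNAs. All counts of this list include ZEB1 and ZEB2, members selected on these levels. Of 27 tested, 18 had a positive log2 fold change between 6 and 12 months, with a median of 0.42 against 0.05 for all mRNAs, and 0.33 without 12-month replicate 1. The median of 0.42 is the value of ZEB2 itself. At an unadjusted p under 0.05, 3 were higher (beside 6.16%) and 0 lower (beside 0.710%) in that comparison. Between 2 and 6 months 1 was higher and 3 were lower, ZEB1 among the latter (beside 1.36% and 2.71%). Between 2 and 12 months 0 were higher and 1 was lower (beside 2.01% and 0.663%). JAG1, a Notch ligand, had 36.0 CPM in 12-month replicate 1, where the other rams had 8.14 to 32.5 CPM, and VEGFA, an angiogenic growth factor, had 16.0 CPM against 2.15 to 11.9 CPM. PTPN13, a tyrosine phosphatase, and QKI, a splicing regulator, had 69.3 and 97.0 CPM in that ram, inside their ranges of 62.3 to 224 and 67.9 to 166 CPM elsewhere. ERRFI1, an inhibitor of the EGF receptor, had 46.3 CPM in a range of 25.1 to 59.5 CPM, and TUBB3, a tubulin, 37.4 CPM, near the lowest of 36.6 to 174 CPM. CTNNB1, the adhesion and Wnt protein beta-catenin, had 255 CPM against 99.3 to 268 CPM.

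Other miRNAs known from epithelia varied in which rams they marked. The rno-miR-96-5p row, of a sensory and secretory epithelial cluster, had 2724 CPM in 12-month replicate 1 and 4.01 to 35.0 CPM elsewhere, and rno-miR-203b-5p had 2107 CPM against 9.79 to 207 CPM. A miR-215-5p row of chromosome 12, known from intestinal epithelium, had 1142 CPM there against 3.73 to 82.1 CPM. The miR-192-5p row and oar-miR-194 were high in 6-month replicate 3 as well as in 12-month replicate 1, at 5232 and 6247 CPM and at 1495 and 2304 CPM, against at most 1560 and 510.3 CPM elsewhere. The endocrine miRNA miR-375-3p did not mark that ram, at 236 CPM in a range of 25.0 to 469 CPM over the others. The miR-34b-5p and miR-34c-5p rows, germ cell miRNAs, were lowest in 2-month replicates 2 and 3 and 12-month replicate 3, at 3299 to 14952 CPM and 1591 to 5833 CPM, the rams low in spermatid transcripts. The miR-449a-5p row, of the same seed family, was lowest in the same rams, at 694 to 2127 CPM against 2314 CPM in 12-month replicate 1. None of these miRNAs was called in the edgeR fit of the 9 rams.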

How the data were processed

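Small RNA and poly(A) mRNA libraries of the same 9 rams were sequenced on an Ion Proton instrument. The tables hold whole-number counts per miRNA and per gene, deposited by the authors without normalization. Per the study's methods, miRNA reads were mapped to sheep miRBase, then to the sheep genome Oar_v3.1 for prediction, then with BWA to human, rat and mouse miRBase. The mRNA counter is not given in the sources used here. RNA was taken if its integrity passed the study's minimum, without values per ram.

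Counts were fitted here in R 4.3.3 with edgeR 4.0.16 over all 9 libraries of an assay, after edgeR's filter by age. Upper-quartile scaling, named by the study, was used for miRNAs and TMM for mRNAs of gene type mRNA. The quasi-likelihood test took the place of EB-Seq, with Benjamini-Hochberg adjusted p under 0.05 and a fold change over 1.5, the study's thresholds. Log2 CPM used a prior count of 0.5. Highest rams were counted over genes with at least 10 counts in a library. The scripts were tested on simulated data. Alternatives were other scalings, DESeq2 1.42.0, no filter, no fold threshold, only 6 libraries, a replicate block and each ram left out. Figures and tables used Python 3.11.15.

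Members and lists were chosen with earlier results of these data known. Genes were named as members, as the 3 highest of a list in mean CPM or up to 4 with an unadjusted p under 0.05, as family rows by seed, or as the miRNAs and mRNAs most alike to oar-miR-200b. Others are introduced as chosen after their values were seen. Of the miRNAs of epithelia looked up by name, miR-182, miR-183, miR-205 and miR-31 had 0 rows past the filter. Sequences are those in the miRNA table. Target sites, promoters, proteins and positions were not analysed here. p-values weigh the difference between ages against the spread between rams.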

Additional observations from a re-analysis of the deposited data

How the results depend on the processing

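The number of called features was 0 in each comparison under every scaling, without the fold threshold, with only the 6 libraries compared and with the replicate block. DESeq2 called 8 miRNAs between 6 and 12 months and 3 between 2 and 12 months. For mRNAs it called 9, 3 and 1, given for the youngest pair of ages, the oldest pair and the outer pair. Without the filter edgeR called 6, 41 and 41 miRNAs in the same order. Leaving out each ram in turn gave 0 to 1 mRNAs between 2 and 6 months, the 1 without 6-month replicate 1, and 0 elsewhere. An alternative chosen after seeing the data, without 2-month replicate 1 and 12-month replicate 3, called 2306 mRNAs between 2 and 6 months and 1814 between 2 and 12 months, and moved ZEB2 between 2 and 12 months from -0.35 to -1.06 on the log2 scale. For ZEB1 the log2 fold change between 2 and 6 months was -0.85 with upper-quartile scaling and -0.98 with library totals, and between 6 and 12 months 0.70 with library totals.

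Over the fits that leave rams out, this last one included, log2 fold changes between 6 and 12 months ranged from -3.66 to 4.62 for oar-miR-200a, -2.30 to 5.92 for oar-miR-200b, -4.80 to 3.60 for oar-miR-200c, -0.22 to 2.66 for CDH1 and 1.21 to 2.72 for ESRP1. Between 2 and 12 months the values ran from -1.001 to 7.59, 0.030 to 7.76, -1.44 to 7.32, 2.15 to 5.90 and 0.19 to 1.84, and those of ZEB2 from -1.06 to 0.26. For the miRNAs, CDH1 and ESRP1 the lowest value was the one without 12-month replicate 1, and without it these values moved by more than the spread within ages. Rams of different ages share only a replicate number: the correlation of same-numbered deviations ranged from -0.68 to 0.20 for miRNAs and -0.82 to 0.52 for mRNAs. With the replicate number as a block, the 3 miRNAs had log2 fold changes of 0.68, 2.10 and -0.97 between 6 and 12 months, oar-miR-200c turning negative. The planned permutation tests of correlations between the miRNAs and the mRNA members, and their alternatives, were not run, because the rams fall into separate groups. With 3 rams an age, 1 ram set the 12-month means of the miRNAs, and in the shallowest small RNA library 3 counts correspond to 9.54 CPM.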

Other observations

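The genes that mark connective tissue and the loss of epithelial character were highest in several rams. Of 11 epithelial-mesenchymal transition factors with at least 10 counts in a library, ZEB1 and ZEB2 included, 4 were highest in 2-month replicate 2 and 3 in 12-month replicate 1 (1 of the 9 that had 10 counts in another library), and of 10 mesenchymal genes 6 and 4, beside 20.3% of all mRNAs in each of these rams. VIM, the intermediate filament of mesenchymal and Sertoli cells, had 771 CPM in 2-month replicate 2, 736 CPM in 12-month replicate 3 and 537 CPM in 12-month replicate 1, against 191 to 606 CPM elsewhere. COL1A1, a fibrillar collagen chain, was highest in 12-month replicate 1, at 2169 CPM, and had 127 to 1630 CPM elsewhere. SOX9, a transcription factor of Sertoli cells, had 41.8 CPM in 2-month replicate 2 and 5.64 CPM in 12-month replicate 1, within the 3.28 to 19.9 CPM of the other 7 rams. No gene of either list was called by edgeR's quasi-likelihood test with no ram left out, and 1 transition factor was called between 2 and 6 months without 2-month replicate 1 and 12-month replicate 3. Of the smaller lists, 3 of 4 endothelial genes, 1 of 4 macrophage genes and 4 of 4 genes of basal and squamous epithelium were highest in 12-month replicate 1, beside the same 20.3%. With library totals the counts were 2, 1 and 4, beside 14.2%, though 2 of the last 4 reached 10 counts in that ram alone.

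The neighbour of MIR200C, PTPN6, had 18.3 CPM in 12-month replicate 1, inside the 7.69 to 27.7 CPM of the other rams, and PHB2, on its other side beyond an uncharacterised locus, had 171 CPM inside 116 to 294 CPM. These neighbours therefore did not show the peak of oar-miR-200c in that ram.

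The features most alike oar-miR-200b over the 9 rams, by Pearson's r of log2 CPM and with no test, were the miRNA rows oar-miR-200a (0.973), rno-miR-203a-3p (0.971), rno-miR-200b-3p (0.970), rno-miR-96-5p (0.958) and a miR-222-3p row of chromosome X (0.953). The mRNAs were PPP1R1B (0.947), EXTL1 (0.942), LOC101117786 (0.942), DUS1L (0.931), DOK1 (0.928), CCL14 (0.923), GOLM1 (0.922), KIAA0494 (0.921), CDH11 (0.919) and INVS (0.915). With r over 0.9 there were 17 of 968 miRNAs and 26 of 14921 mRNAs, and without 12-month replicate 1, a choice made after seeing the data, 2 and 0. For the mRNA members r is a description only, since they were selected on these levels and the rams fall into separate groups. By the same measure r was 0.014 for ZEB1, -0.096 for ZEB2, 0.733 for CDH1, 0.634 for ESRP1 and 0.530 for EPCAM, and without 12-month replicate 1 -0.15, -0.19, 0.335, -0.20 and 0.032. Nothing is read from them about targeting. PPP1R1B had 59.9 CPM in 12-month replicate 1 and 3.42 to 7.62 CPM in the others, so these likenesses rest mostly on 1 ram.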
